A study of Mus musculus with 9 samples.

Results

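Igf2bp1, Igf2bp2, Igf2bp3, Lin28b, Hmga1, Hmga2, H19, Msln and Muc16 are genes of fetal growth or tumour antigens, and they were followed over the 3 genotypes of a mouse mammary gland study. The 9 genes are 9 of the 55450 genes in the count table, and each was found there by its Ensembl identifier. They were chosen from the measured differences between these same genotypes, so the fold changes given for them are descriptions and carry no p-value.

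The study sequenced RNA from mammary cells in which the Hippo pathway kinases LATS1 and LATS2 had been deleted, with or without the transcription factor gene Sox9. Control mice carried lsl-EYFP and K8CreERT2. The LATS1/2-KO group carried LATS1/2f/f, lsl-EYFP and K8CreERT2, and the LATS1/2-Sox9-KO group carried LATS1/2f/f, Sox9f/f, lsl-EYFP and K8CreERT2. All groups, controls included, received 2 mg of tamoxifen by intraperitoneal injection on 5 consecutive days, and live EYFP+ cells were sorted 7 days after the last dose from adult nulliparous mice. Cre activity was driven by the keratin 8 promoter, which is active in luminal cells, and the sort kept all cells that had switched on the EYFP reporter, whether or not each floxed allele had recombined. Each group held 3 libraries. The labels do not say that these came from separate mice, so the spread between them may in part be technical.

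LIN28B, IGF2BP1, IGF2BP3, HMGA2 and the non-coding RNA H19 are abundant in the embryo and are largely silent in most adult tissues. LIN28B blocks the maturation of let-7 microRNAs, and the messages of HMGA2, of the IGF2BP family and of LIN28B itself are known let-7 targets. IGF2BP proteins bind messenger RNAs and prolong their life, HMGA proteins bend AT-rich DNA in chromatin, and mesothelin and MUC16, the CA125 antigen, are surface proteins that bind one another and are used as tumour antigens.

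Total counts ranged from 44167762 to 47003587 in the control libraries, from 50508666 to 61745346 in the LATS1/2-KO libraries and from 55503365 to 61967651 in the LATS1/2-Sox9-KO libraries. The library labelled LATS1/2-KO replicate 1 stood apart from its group. Its log2 CPM values (log2 of counts scaled to library size) correlated with those of the other two LATS1/2-KO libraries at Pearson's r of 0.950 and 0.951 across genes, whereas all other pairs within a group lay between 0.970 and 0.985. It also held the highest sums of fibroblast and immune markers, and calls and values that change without it are also given without it.

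The targeted genes were examined first. Lats1 had a mean of 5847 ± 152 normalised counts in controls (SD, n = 3), 2116 ± 207 in libraries labelled LATS1/2-KO and 1870.4 ± 176 in libraries labelled LATS1/2-Sox9-KO, and it fell by 1.47 and 1.64 on the log2 scale (adjusted p = 7.07e-06 and 2.8e-06, quasi-likelihood test in edgeR, adjusted by Benjamini-Hochberg). Normalised counts were adjusted to an average library size. Lats2 counts did not fall in either group with deletions. Its normalised counts were 1039, 865 and 1219.7 in controls, 1256, 1434 and 1723 in libraries labelled LATS1/2-KO, and 1957, 1580.4 and 1239.7 in libraries labelled LATS1/2-Sox9-KO. Lats2 was higher by 0.50 and 0.61 on the log2 scale (adjusted p = 0.0571 and 0.024). Counts over a whole gene do not show whether a floxed exon was lost, so the genotype names below are those of the labels. The study's reporting summary says that its RNA sequencing showed the genetic alterations expected in these mice. Sox9 was at 21598 ± 1683, 9715 ± 2620 and 7343 ± 1281 normalised counts. Its log2 fold changes against control were -1.15 in LATS1/2-KO, which carried no floxed Sox9, and -1.56 in LATS1/2-Sox9-KO (adjusted p = 0.000682 and 9.39e-05, edgeR). The libraries labelled LATS1/2-Sox9-KO differed from those labelled LATS1/2-KO by -0.40 (SE 0.19), which did not pass the test (adjusted p = 0.25, edgeR).

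The luminal keratins Krt8 and Krt18 were abundant in every library, but most other luminal markers were lower in the libraries with deletions. Of 12 luminal markers, 6 were called lower and 0 higher between LATS1/2-KO and control, and 8 lower and 2 higher (Krt8 and Krt18) between LATS1/2-Sox9-KO and control. Of all tested genes, 17.5% were called lower and 17.1% higher in the first comparison, and 19.6% and 17.8% in the second. The hormone receptor genes Pgr, Prlr and Esr1 fell, with log2 fold changes of -5.91, -4.81 and -3.50 in LATS1/2-KO and -9.34, -6.30 and -3.67 in LATS1/2-Sox9-KO. The luminal transcription factor genes Foxa1 and Gata3 fell likewise, at -3.56 and -2.39 in LATS1/2-KO and -3.78 and -2.36 in LATS1/2-Sox9-KO (adjusted p at most 4.78e-05 for these 5 genes, edgeR). Without LATS1/2-KO replicate 1 the LATS1/2-KO values of Pgr and Prlr became -6.56 and -5.55. The summed level of the 12 lay between 922416 and 1540100 normalised counts, with Krt18 the most abundant. Basal and myoepithelial markers summed to 5308, 6745 and 5716 in controls and to between 158572 and 387801 in the libraries with deletions, most of it Krt14. They did not move as one: of 10, 6 were called higher and 2 lower in LATS1/2-KO, and 4 higher and 3 lower in LATS1/2-Sox9-KO. In LATS1/2-Sox9-KO 1 was called lower without replicate 1 of that group. There 3 were called higher without control replicate 1, 2 or 3, or without LATS1/2-Sox9-KO replicate 2 or 3. Trp63, a transcription factor of basal cells, was called lower at -4.82 (adjusted p = 0.000291, edgeR) and -4.19 (adjusted p = 0.000503), Myh11, a smooth muscle myosin, at -2.22 and -1.23, and Krt5 was at 0.06 (adjusted p = 0.935) and 1.59 (adjusted p = 0.0298). Markers of fibroblasts summed to 1011 to 1531 in controls, 8941, 2633 and 2421 in LATS1/2-KO, and 2980, 4075 and 7328 in LATS1/2-Sox9-KO, with Col3a1 the most abundant over all libraries. Adipocyte markers, led by Fabp4, summed to 186 to 297 in controls, 490.4, 3680 and 1755 in LATS1/2-KO, and 86.3, 1259 and 1104 in LATS1/2-Sox9-KO. Immune markers, among which Cd3e was at 0 throughout, ranged from 399 to 2362, endothelial and pericyte markers from 290 to 912, and Schwann cell markers, led by Mbp, from 4934 to 8707. In a sorted pool, fewer cells of a type and less RNA per cell cannot be told apart.

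**Figure D1:**
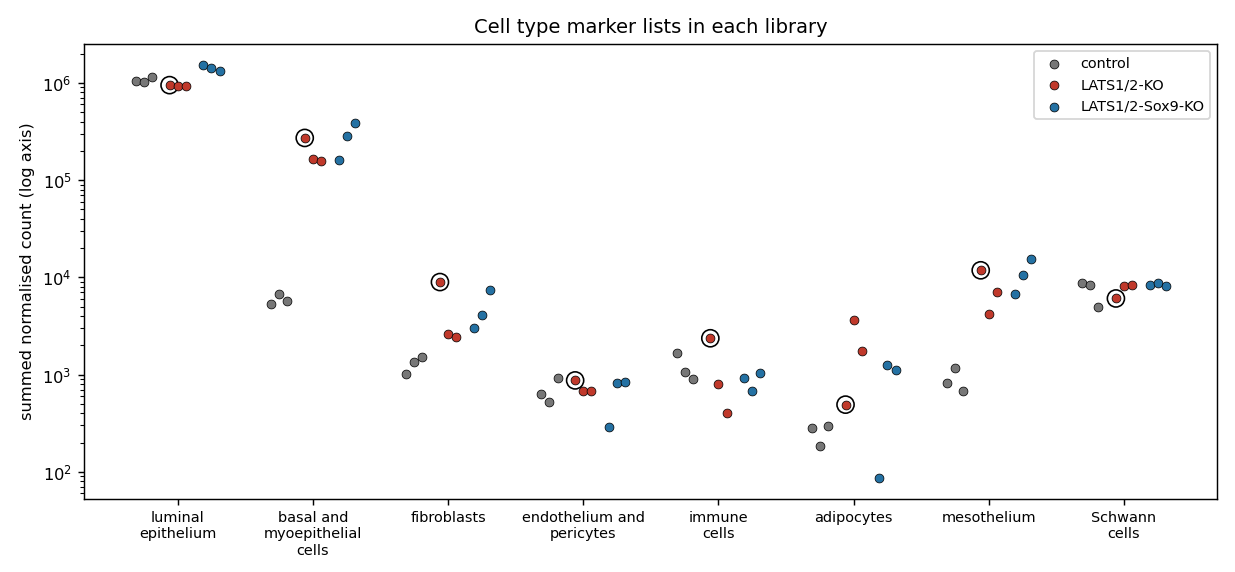
Summed normalised counts (log axis) of 8 cell type marker lists in each of the 9 libraries, with 1 point per library and LATS1/2-KO replicate 1 ringed. The ringed library had the highest immune sum of all libraries (2362) and the highest fibroblast sum (8941), and its adipocyte sum (490.4) was below those of the other two LATS1/2-KO libraries (3680 and 1755).

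The let-7 family is shown because LIN28B acts on it and several of the 9 messages hold its target sequence. RefSeq lists 11 mature mouse microRNAs that share the seed GAGGUAG at bases 2 to 8. The following 4 differ in bases outside the seed, which is in capitals.
let-7a-5p: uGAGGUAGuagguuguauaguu
let-7c-5p: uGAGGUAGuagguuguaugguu
let-7g-5p: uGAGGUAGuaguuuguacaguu
miR-98-5p: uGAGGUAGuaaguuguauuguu

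The complement of the seed, CTACCTC, was searched on the transcript strand of the longest 3′ untranslated region of each protein-coding gene in GENCODE M21 (GRCm38). It occurred in 1898 of 21037 such regions (9.02%), or in 19.99% of the 5379 regions of 2000 bases or more. Of the 8 protein-coding genes followed here 6 held it. Igf2bp1, Hmga2 and Lin28b each held 4 matches, a number reached by 12 of all 21037 genes (0.057%). Igf2bp2, Igf2bp3 and Hmga1 held 1 match each, and Msln and Muc16, with regions of 129 and 63 bases, held none. The matches per 1000 bases were 1.33 in Hmga2, 0.900 in Lin28b, 0.845 in Hmga1, 0.631 in Igf2bp1, 0.561 in Igf2bp2 and 0.472 in Igf2bp3, against 0.070 over all regions. The match nearest the stop codon that was followed by an A is printed for each of 5 genes, 5′ to 3′ on the minus strand of GRCm38, with the complement of the seed in capitals.
Hmga2 at chr10:120364222-120364245: ccgacattcaatttCTACCTCagc
Lin28b at chr10:45381020-45381043: cccgggcgggaagtCTACCTCatg
Igf2bp1 at chr11:95961776-95961799: ctgtgcgaagtaaaCTACCTCaag
Igf2bp2 at chr16:22059471-22059494: cacacaaataaaagCTACCTCagg
Igf2bp3 at chr6:49086785-49086808: gcatttttactcaaCTACCTCagg

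These are matches of letters. Mature let-7 was not measured in these libraries, and a match does not show that a message is bound. Over all tested genes with such a region, those with 1 match had a median log2 fold change of -0.07 between LATS1/2-KO and control (1314 genes), those with 2 or 3 matches -0.15 (173 genes) and those with no match 0.02 (12920 genes). The median length of the region differed as well, at 2141, 3525 and 1017 bases in that order. The part of length in these medians was not tested. Besides the 3 genes above, those with at least 4 matches and their log2 fold changes between LATS1/2-KO and control were Trim71 (3.00), D10Wsu102e (0.37), Nudt12 (-0.09), Zbtb37 (-0.17), Trim6 (-0.36), Nr6a1 (-0.42), Hic2 (-1.47), Mcf2l (-2.97) and Ptafr (-3.16). Those 12 genes thus spanned both directions, and Igf2bp1, Hmga2 and Lin28b among them had been chosen from the measured differences.

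A gene was called when its absolute log2 fold change was above 1 and its adjusted p at most 0.05 in edgeR's fit of 19357 genes. All 9 genes passed the filter on low counts, but Igf2bp1, Igf2bp3, Hmga2, H19, Lin28b and Msln did so through the libraries with deletions, since at most 1 of the 3 control libraries held 10 counts or more of each. Between LATS1/2-KO and control, 6 of the 9 were called higher and 0 lower, where 17.1% of all tested genes were called higher and 17.5% lower. Between LATS1/2-Sox9-KO and control, 5 were called higher and 1 lower, Igf2bp2 (17.8% and 19.6% of all genes). The Igf2bp2 call was lost when any 1 of 6 libraries was left out. In LATS1/2-Sox9-KO against LATS1/2-KO, 1 was called higher, Msln, and 0 lower (1.55% and 2.16% of all genes), and that call was lost when any 1 of 4 libraries was left out. These comparisons chose the genes, so nothing is read from the counts. The first and the second comparison also share their control libraries.

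The same holds for counts of genes whose libraries did not overlap. All LATS1/2-KO libraries lay above all control libraries for 6 of the 9 genes and below them for 0 (31.3% and 30.3% of all genes). All LATS1/2-Sox9-KO libraries lay above the controls for 6 and below them for 1 (34.9% and 33.8%). They lay above all LATS1/2-KO libraries for 3, Igf2bp1, Hmga2 and Msln, and below them for 1, H19 (14.6% and 13.3%).

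**Figure D2:**
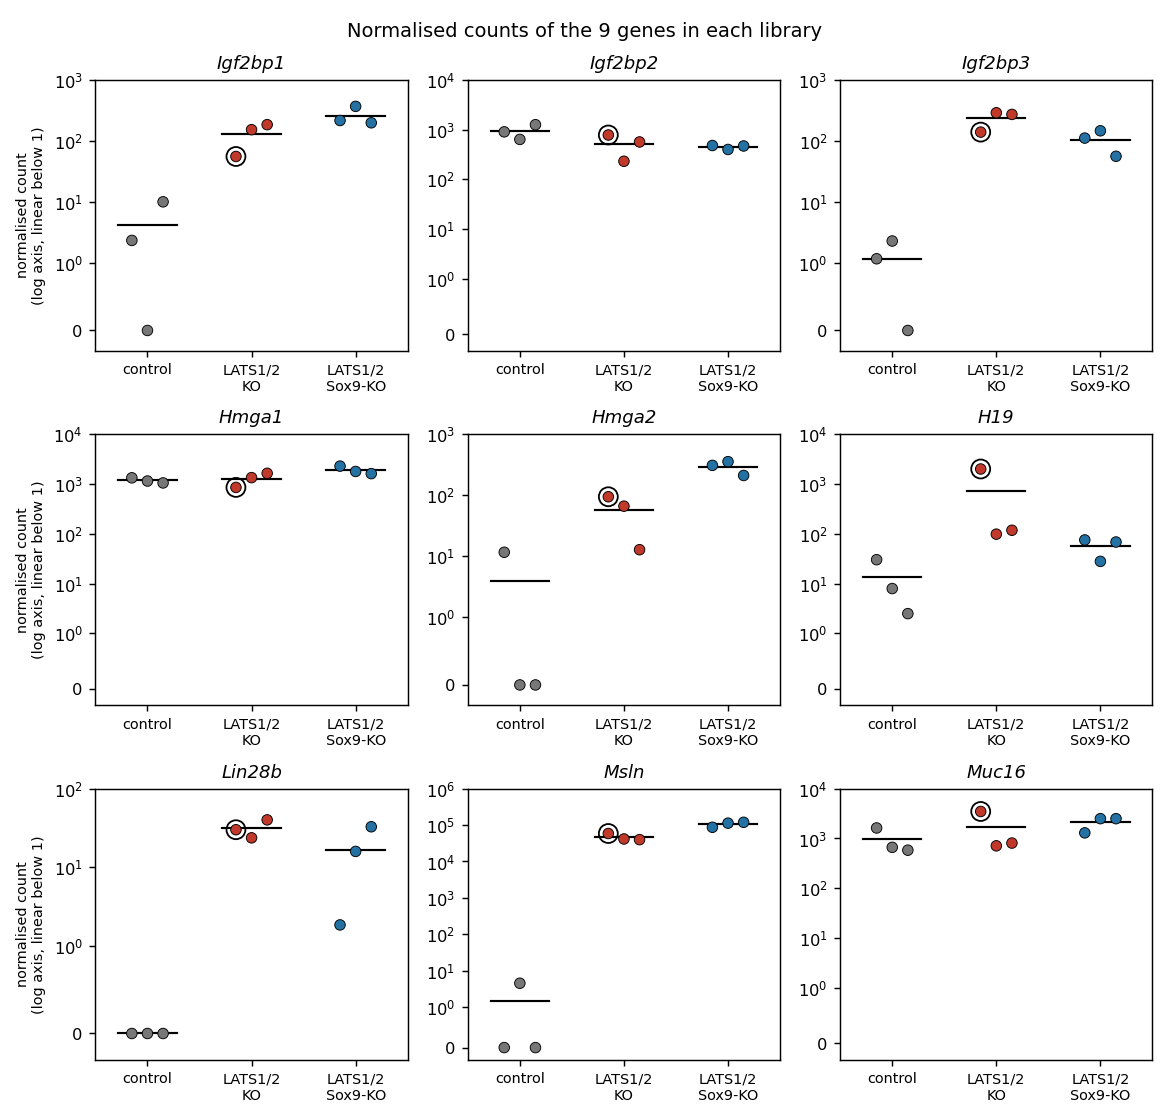
Normalised counts of the 9 genes in each library (log axis, linear below 1), with 1 point per library, the group mean as a line and LATS1/2-KO replicate 1 ringed. Lin28b was at 0 in all control libraries, Msln was at most 4.54 in controls and at least 39868 normalised counts in the other libraries, and the ringed library held the highest H19 and Muc16 values.

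Among the RNA-binding proteins, Lin28b had no read in any control library, so its control level was under the limit of 3 counts over the group. Its counts were 30, 28 and 44 in LATS1/2-KO and 2, 16 and 36 in LATS1/2-Sox9-KO. Every library with a deletion was therefore above every control, although the lowest LATS1/2-Sox9-KO library held only 2 reads. Against the limit of 3 counts over the control group, Lin28b was at least 26.5-fold higher in LATS1/2-KO and at least 14.4-fold higher in LATS1/2-Sox9-KO, or at least 7.35-fold without LATS1/2-Sox9-KO replicate 3. LATS1/2-Sox9-KO and LATS1/2-KO overlapped, with a log2 fold change of -0.89 (SE 0.84), or -1.79 without that library. The gene lies at chr10:45376620-45486395 on the minus strand (GRCm38). Its paralogue Lin28a, which also blocks let-7, had 0 counts in all 9 libraries.

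Igf2bp1 (chr11:95957163-96005940, minus strand) had normalised counts of 2.32, 0 and 9.96 in controls, 55.2, 152 and 183 in LATS1/2-KO, and 214, 366 and 197 in LATS1/2-Sox9-KO. The 3 groups did not overlap, and LATS1/2-KO replicate 1 was the lowest of its group. The log2 fold changes were 4.99 (SE 0.81) for LATS1/2-KO and 5.98 (SE 0.83) for LATS1/2-Sox9-KO against control, and 0.99 (SE 0.60) between them. Without control replicate 3 the first and second were 6.67 and 7.68, and without control replicate 2 they were 4.395 and 5.39. From 10 reads over the control group, the ratios of normalised counts were 33.8 (95% exact interval 18.2 to 71.1) and 65.2 (35.3 to 137), where such intervals cover counting error only.

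Igf2bp3 (chr6:49085223-49214957, minus strand) had raw counts of 1, 2 and 0 in controls, 138, 339 and 296 in LATS1/2-KO, and 119, 146 and 61 in LATS1/2-Sox9-KO. Both groups with deletions lay above all controls, and they overlapped each other. On normalised counts the ratio to control was 201 (68.4 to 974) in LATS1/2-KO and 87.1 (29.5 to 424) in LATS1/2-Sox9-KO, and the fitted log2 fold changes were 7.48 (SE 0.71) and 6.32 (SE 0.71), or 8.33 and 7.17 without control replicate 2. It was -1.16 (SE 0.45) between LATS1/2-Sox9-KO and LATS1/2-KO, the opposite sign to Igf2bp1. Igf2bp3 overlaps Malsu1 on the other strand, which held 742 to 1448 counts over the 9 libraries, the controls with 0 to 2 Igf2bp3 counts included.

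Igf2bp2 (chr16:22059009-22163299, minus strand), the family member that adult tissues commonly keep, was present in every library. Its normalised counts were 898, 633 and 1249.6 in controls, 776, 230.5 and 563 in LATS1/2-KO, and 477, 398 and 467 in LATS1/2-Sox9-KO. The LATS1/2-KO libraries overlapped the controls, whereas all LATS1/2-Sox9-KO libraries lay below them. The log2 fold changes were -0.83 (SE 0.39) and -1.05 (SE 0.39), and -0.22 (SE 0.39) between the groups with deletions. Without LATS1/2-KO replicate 1 the first became -1.22 and the last 0.18, and over all removals of 1 library the second ranged from -1.26 to -0.76. The fitted values of Igf2bp2 against control were thus negative where those of Igf2bp1 and Igf2bp3 were positive.

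Among the chromatin proteins, Hmga2 (chr10:120361275-120476469, minus strand) had 10, 0 and 0 raw counts in controls. Its counts were 94, 78 and 14 in LATS1/2-KO and 332, 356 and 231 in LATS1/2-Sox9-KO. The lowest LATS1/2-KO library, replicate 3, was close to the highest control, at 12.8 against 11.6 normalised counts, whereas all LATS1/2-Sox9-KO libraries were at 210.4 or above. The ratio to control was 14.5 (7.70 to 30.7) in LATS1/2-KO and 73.7 (39.9 to 154) in LATS1/2-Sox9-KO, and LATS1/2-Sox9-KO was 5.09 (4.34 to 5.99) times LATS1/2-KO. The fitted log2 fold changes were 3.84 (SE 1.05), 6.17 (SE 1.07) and 2.33 (SE 0.82), and without control replicate 1, which held all the control reads, the first and second became 8.88 and 11.21. Without control replicate 2 they were 3.25 and 5.59.

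Hmga1 (chr17:27556497-27563674, plus strand) was expressed in every library. Its normalised counts were 1330.4, 1146 and 1050.4 in controls, 853, 1343 and 1639 in LATS1/2-KO, and 2286, 1785 and 1615 in LATS1/2-Sox9-KO. LATS1/2-KO spread to either side of the controls, and LATS1/2-Sox9-KO lay above all of them. The log2 fold changes were 0.12 (SE 0.23), 0.69 (SE 0.23) and 0.57 (SE 0.23), and without LATS1/2-KO replicate 3 the first turned to -0.09. Hmga1 has a near-identical copy, Hmga1b. The study's methods describe counting of uniquely aligned pairs, so reads that fit both copies would be left out, and the level of Hmga1 is uncertain. Hmga1 also overlaps AI413582 (383 to 1045 counts) and Gm49774 (77 to 222 counts) on the other strand. Hmga1b had 1012 to 1265 normalised counts in controls, 1179 to 1792 in LATS1/2-KO and 1933 to 2524 in LATS1/2-Sox9-KO.

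H19 (chr7:142575529-142578143, minus strand), an imprinted non-coding RNA and the host of miR-675, varied most within LATS1/2-KO, where 1 library set the size of its difference from control. Its normalised counts were 30.2, 7.94 and 2.49 in controls, 1999.8, 98.3 and 118 in LATS1/2-KO, and 75.2, 27.9 and 68.3 in LATS1/2-Sox9-KO. LATS1/2-KO replicate 1 was far above all others, the other two LATS1/2-KO libraries also lay above every control, and the LATS1/2-Sox9-KO libraries overlapped the controls. The log2 fold changes were 5.75 (SE 1.34), 2.06 (SE 1.26) and -3.69 (SE 1.17), and without LATS1/2-KO replicate 1 the first was 2.98 and the last -0.91. Without control replicate 1 the first and second were 7.09 and 3.40. LATS1/2-KO replicate 1 also had the highest fibroblast and immune marker sums, and their part in the H19 value was not tested. The mature arms of miR-675, which lie within H19 and were not measured here, are printed from RefSeq with the seed in capitals.
miR-675-5p: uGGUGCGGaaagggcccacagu
miR-675-3p: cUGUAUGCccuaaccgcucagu

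Igf2, the growth factor gene beside H19, was low in most libraries. It had 4, 7 and 1 counts in controls, 2, 8 and 41 in LATS1/2-KO, and 3, 13 and 8 in LATS1/2-Sox9-KO. LATS1/2-KO replicate 3 held the most Igf2 reads, and the library with the most H19 reads held 2.

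Among the antigens, Msln (chr17:25748613-25754378, minus strand) showed the widest range of the 9 genes. Mesothelin is made as a precursor that is cut into a surface protein and a soluble factor. It had 0, 4 and 0 raw counts in controls, 58530, 49034 and 43713 in LATS1/2-KO, and 93743, 113415 and 130795 in LATS1/2-Sox9-KO. The 3 groups were separate, and the normalised means were 1.51 ± 2.62, 46704 ± 10423 and 106389 ± 17050 (SD, n = 3). The ratio to control was 29400 (11500 to 108000) in LATS1/2-KO and 67700 (26400 to 249000) in LATS1/2-Sox9-KO. The fitted log2 fold changes of 14.75 (SE 0.50) and 15.94 (SE 0.51) rest on 4 reads in control replicate 2 and became 18.53 and 19.72 without it. LATS1/2-Sox9-KO was above LATS1/2-KO by 1.19 (SE 0.25).

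Mesothelial markers were read beside Msln. Of 10 genes 5 were tested. Of these 3 were called higher and 1 lower between LATS1/2-KO and control (17.1% and 17.5% of all genes). Between LATS1/2-Sox9-KO and control, 2 were called higher and 1 lower (17.8% and 19.6%). In LATS1/2-Sox9-KO against LATS1/2-KO, 1 was called higher and 0 lower (1.55% and 2.16%). That call was lost without LATS1/2-KO replicate 3 or LATS1/2-Sox9-KO replicate 2. Of the 5 not tested, Calb2 was at 0 in every library, Wt1, which mesothelial cells express, had 0 counts in all 6 libraries with deletions, Nkain4 and Gpm6a were under 10 normalised counts throughout, and Lrrn4 reached at most 16.2, in a control. Upk1b was the most abundant, at 53.4, 94.1 and 79.7 normalised counts in controls, 9899.9, 2831 and 5410.2 in LATS1/2-KO, and 4034, 7536 and 13615 in LATS1/2-Sox9-KO. Upk3b went from at most 7.94 in controls to 65.2, 330.4 and 189.7 in LATS1/2-KO and to 1341, 1987 and 1047 in LATS1/2-Sox9-KO. The summed level of the list was 681 to 1171 in controls, 4207 to 11808 in LATS1/2-KO and 6696 to 15607 in LATS1/2-Sox9-KO, and the part of mesothelial cells in the Msln counts was not tested. Bnc1, a zinc finger gene, rose by 1.28 (adjusted p = 0.00244, edgeR) in LATS1/2-KO and was at 0.73 (adjusted p = 0.0372) in LATS1/2-Sox9-KO, below the fold threshold. Cldn15, a claudin, was called lower at -1.07 (adjusted p = 0.0393) and -2.15 (adjusted p = 0.00121), the first call being lost when any 1 of 6 libraries was left out, and Rspo1 was at 0.24 and 0.35 and was not called. Mslnl, the mesothelin-like paralogue, was called higher in both comparisons with control, by 3.30 (SE 0.41, adjusted p = 9.47e-05, edgeR) in LATS1/2-KO and by 2.79 (adjusted p = 0.000219) in LATS1/2-Sox9-KO. It reached only 91.3, 194 and 145 normalised counts in LATS1/2-KO.

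Muc16 (chr9:18495455-18674530, minus strand), the long mucin that binds mesothelin, was already present in controls. Its normalised counts were 1625, 663 and 581 in controls, 3481, 711 and 808 in LATS1/2-KO, and 1295, 2498 and 2496 in LATS1/2-Sox9-KO. All 3 groups overlapped. The log2 fold changes were 0.80 (SE 0.62), 1.13 (SE 0.62) and 0.33 (SE 0.61), and without LATS1/2-KO replicate 1 the first was -0.33 and the last 1.47. Without control replicate 1, the highest control, the first and second were 1.42 and 1.75. LATS1/2-KO replicate 1 held the highest immune and fibroblast marker sums, and their part in the Muc16 value was not tested.

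**Figure D3:**
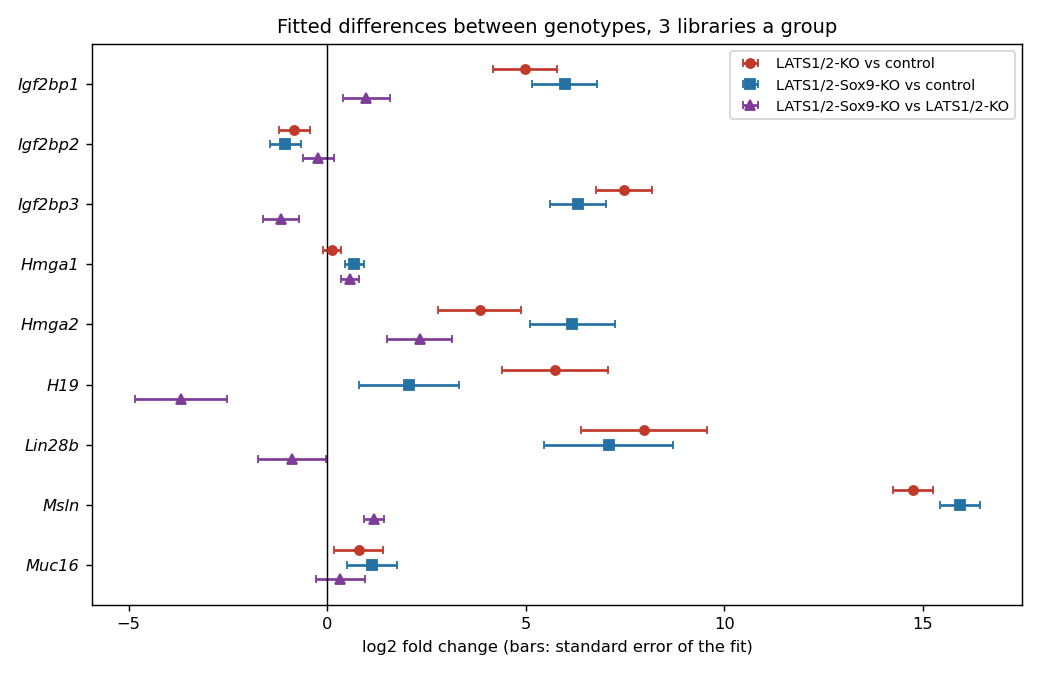
Log2 fold changes of the 9 genes from edgeR's fit in the 3 comparisons, with bars for the standard error (3 libraries a group). Msln lies furthest to the right in both comparisons with control (14.75 and 15.94), Igf2bp2 lies left of 0 in all 3, and H19 has the lowest value (-3.69) between LATS1/2-Sox9-KO and LATS1/2-KO.

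Per transcript length, as RPKM (library-scaled reads per kilobase of annotated exon), the genes differed widely in level. In controls, Hmga1 was highest at 10.3 ± 1.24 RPKM (SD, n = 3), followed by Igf2bp2 at 2.33 ± 0.78 and Muc16 at 0.674 ± 0.409, and the other 6 were at or below 0.102. In LATS1/2-KO, Msln was highest at 283 ± 63.2 RPKM and Hmga1 next at 11.2 ± 3.47. H19 at 5.58 ± 8.25, Igf2bp2 at 1.31 ± 0.69 and Muc16 at 1.18 ± 1.11 followed, and these 3 overlapped each other, the range of H19 (0.742 to 15.1) also reaching that of Hmga1. Below them, Igf2bp3 was at 0.528, Igf2bp1 at 0.250, Hmga2 at 0.158 and Lin28b at 0.064 RPKM, each overlapping its neighbours in this order. In LATS1/2-Sox9-KO the order was Msln (645 ± 103), Hmga1 (16.6 ± 3.05), Muc16 (1.48 ± 0.49), Igf2bp2 (1.12 ± 0.11), Hmga2 (0.799 ± 0.202), Igf2bp1 (0.497 ± 0.178), H19 (0.432 ± 0.193), Igf2bp3 (0.236 ± 0.103) and Lin28b (0.035 ± 0.032), in which Muc16 overlapped Igf2bp2, and Hmga2, Igf2bp1, H19 and Igf2bp3 each overlapped their neighbours among these 4, while Igf2bp2 lay above Hmga2, and Igf2bp3 above Lin28b, in every library.

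By level per length, 19333 genes were ranked, fewer than the 19357 tested. Msln thus ranked 18946 among them in controls, 134 in LATS1/2-KO and 50 in LATS1/2-Sox9-KO. The embryonic RNA-binding proteins stayed among the low genes where they were highest: Igf2bp3 ranked 14048 in LATS1/2-KO, Igf2bp1 ranked 13945 in LATS1/2-Sox9-KO and Lin28b ranked 18107 in LATS1/2-KO. The rank describes the pooled RNA of a library and does not show how many cells carried the message.

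**Figure D4:**
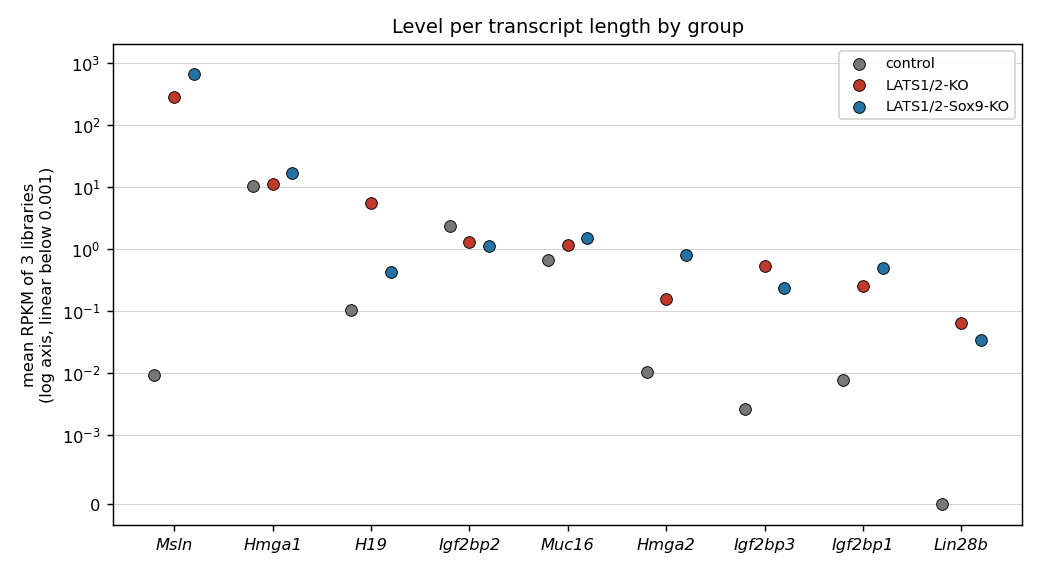
Mean RPKM of the 9 genes (log axis, linear below 0.001) in each group of 3 libraries. Msln moves from 0.00917 RPKM in controls to 283 and 645, Hmga1, Igf2bp2 and Muc16 stay within about 1 step of the log axis, and Lin28b remains under 0.1 in every group.

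Genes of the same pathways were read from lists that leave out the 9. Among all tested genes, 17.1% were called higher and 17.5% lower between LATS1/2-KO and control. The shares were 17.8% and 19.6% between LATS1/2-Sox9-KO and control, and 1.55% and 2.16% between LATS1/2-Sox9-KO and LATS1/2-KO. Of 12 genes of the LIN28 and let-7 machinery, 11 were tested. Between LATS1/2-KO and control 2 were called higher, Trim71 and Dgcr8, and 0 lower (median log2 fold change -0.07, against 0.04 over all genes). Dgcr8, which guides the nuclear microRNA processor, rose by 1.25 (SE 0.18, adjusted p = 0.000291, edgeR). Trim71, a stem cell factor and let-7 target, had 0, 8 and 1 counts in controls, 44, 17 and 31 in LATS1/2-KO, and 16, 25 and 33 in LATS1/2-Sox9-KO. Its log2 fold change was 3.00 (adjusted p = 0.0209) in LATS1/2-KO, a call that was lost without control replicate 3 or LATS1/2-KO replicate 1 (adjusted p 0.0685 and 0.0514), and it was 5.31 without control replicate 2. Between LATS1/2-Sox9-KO and control 1 was called higher, Trim71 at 2.70 (adjusted p = 0.0321), a call lost without any of 4 libraries and a value of 5.01 without control replicate 2, and between LATS1/2-Sox9-KO and LATS1/2-KO 0 were called by edgeR or DESeq2, with 4 of 11 at an unadjusted p under 0.05 (22.6% of all genes).

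Of 22 other let-7 target genes, 8 were called higher and 2 lower between LATS1/2-KO and control (median 0.72), and 10 and 2 between LATS1/2-Sox9-KO and control (median 0.87). Of all tested genes, 17.1% were called higher and 17.5% lower in the first comparison, and 17.8% and 19.6% in the second. Only 13 of these 22 held CTACCTC in the region searched. Of those with a mean of at least 100 normalised counts, Ccnd2, a D-type cyclin, rose most, by 4.31 (SE 0.70, adjusted p = 0.000547, edgeR), followed by Thbs1, a matrix glycoprotein, at 1.94 (SE 0.28, adjusted p = 0.000278). Ccnd2 ranged from 231 to 1737 normalised counts in LATS1/2-KO, and without replicate 1 of that group it rose by 2.94 (adjusted p = 1.63e-05). Cdc25a, a phosphatase that drives entry into S phase, rose by 1.77 (SE 0.15, adjusted p = 9.62e-06), and Arid3b fell by 1.84 (SE 0.31, adjusted p = 0.000697). Ccnd2 and Thbs1 held no match, and Cdc25a and Arid3b held 1 each. In LATS1/2-Sox9-KO against LATS1/2-KO, 0 of the 22 were called by edgeR or DESeq2 (median 0.13), and 6 had an unadjusted p under 0.05. Without LATS1/2-KO replicate 1, edgeR called 1 of them higher there, Ccnd2 at 1.93 (adjusted p = 0.00332) against 0.55 (adjusted p = 0.637) with all libraries.

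Of 13 other RNA-binding partners of IGF2BP proteins 0 were called in any of the 3 comparisons by edgeR, with medians of 0.25, 0.11 and -0.10. An unadjusted p under 0.05 was found for 9, 7 and 3 of them, where 60.7%, 62.3% and 22.6% of all tested genes had one. DESeq2 called 1 in the second comparison, Ythdc1, at -1.02 against -0.996 in edgeR. With all libraries, edgeR also called it with RLE factors and with at least 10 counts required in every library (-1.02 in both), as it did without control replicate 3 or LATS1/2-Sox9-KO replicate 1. The largest difference between LATS1/2-KO and control was that of Mettl14, an RNA methylation enzyme subunit, at 0.82 (adjusted p = 0.000589), which passed the p threshold but not the fold threshold.

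Of 10 other HMG chromatin proteins, 4 were called higher between LATS1/2-KO and control and 0 lower (17.1% and 17.5% of all genes). These were Hmgb3 at 1.59 (SE 0.18, adjusted p = 6.43e-05), Hmgn3 at 1.42 (SE 0.22, adjusted p = 0.000391), Hmgb2 at 1.40 (SE 0.15, adjusted p = 3.44e-05) and Hmgn5 at 1.03 (SE 0.14, adjusted p = 0.000173), all from edgeR's fit, and Hmgn5 was under the fold threshold at 0.99 with DESeq2 or RLE factors, at 0.90 without control replicate 3 and at 0.97 without LATS1/2-KO replicate 3. With and without Sox9 deletion beside LATS1/2, 0 were called by edgeR or DESeq2, with 5 at an unadjusted p under 0.05. Between LATS1/2-Sox9-KO and control 1 was called higher and 0 lower (17.8% and 19.6% of all genes). This was Hmgb3 at 1.03 (adjusted p = 0.000793), which went under the fold threshold without control replicate 2 or LATS1/2-Sox9-KO replicate 3. The abundant Hmgb1 and Hmgn1 had log2 fold changes of 0.24 and 0.03 between LATS1/2-KO and control and were not called.

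Among 25 imprinted genes besides H19, 20 were tested. Between LATS1/2-KO and control 5 were called higher and 5 lower (median -0.21), where 17.1% and 17.5% of all genes were called, or 2 to 5 lower with 1 library left out at a time. Nnat, a membrane protein of the developing brain, rose by 3.41 (SE 0.56, adjusted p = 0.000602) and Zdbf2 fell by 2.66 (SE 0.42, adjusted p = 0.000457). Gatm, an enzyme of creatine synthesis, was at 2.37 (SE 0.88, adjusted p = 0.0413). It dropped to 0.19 without LATS1/2-KO replicate 1, and its call was lost without any of 7 libraries. Dcn, a proteoglycan that fibroblasts make, was at -2.24 (SE 0.84, adjusted p = 0.0429) and lost its call without any of 6 libraries (adjusted p 0.0542 to 0.18), with -1.43 without control replicate 3. Against control, 5 were called higher and 6 lower in LATS1/2-Sox9-KO (17.8% and 19.6% of all genes), or 3 to 7 lower with 1 library left out at a time. Peg3, a zinc finger protein, rose by 1.05 (SE 0.26, adjusted p = 0.0422, edgeR) between LATS1/2-Sox9-KO and LATS1/2-KO, and Zdbf2 was called lower at -2.16 (adjusted p = 0.0281). Leaving out any of 7 libraries ended the Peg3 call (adjusted p 0.0546 to 0.114), and leaving out any of 3 ended that of Zdbf2. Without LATS1/2-KO replicate 1, 3 imprinted genes were called higher there, with Airn at 1.66 (adjusted p = 0.00538) and Gatm at 1.31 (adjusted p = 0.0485) among them.

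Of 11 other mesothelin and mucin genes 7 were tested. Between LATS1/2-KO and control, Mslnl alone was called higher and 3 were called lower (17.1% and 17.5% of all genes). The membrane mucins Muc4 at -3.60 (SE 0.77, adjusted p = 0.00289), Muc13 at -3.12 (SE 1.13, adjusted p = 0.0384) and Muc15 at -2.34 (SE 0.47, adjusted p = 0.002) fell in edgeR's fit. Muc13 lost its call without control replicate 3, LATS1/2-KO replicate 2 or LATS1/2-KO replicate 3 (adjusted p 0.0691 to 0.18), and its value was -1.80 without the first of these and -5.29 without LATS1/2-KO replicate 1, where Muc15 was at -3.07. Without LATS1/2-KO replicate 1, 4 were called lower. The counts were 1 higher and 3 lower between LATS1/2-Sox9-KO and control (17.8% and 19.6% of all genes), or 3 to 6 lower with 1 library left out at a time. Between LATS1/2-Sox9-KO and LATS1/2-KO 0 were called by edgeR, with 1 gene at an unadjusted p under 0.05 and 1, Muc13, called by DESeq2.

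Of 21 other oncofetal and tumour antigens 15 were tested. Between LATS1/2-KO and control 5 were called higher and 3 lower (median -0.42), beside the same 17.1% and 17.5% of all genes. Hmmr, a hyaluronan receptor and spindle protein, rose by 4.43 (SE 0.46, adjusted p = 3.27e-05), or by 5.37 without control replicate 2, Birc5, the mitotic protein survivin, by 4.06 (SE 0.23, adjusted p = 1.82e-06) and Gpc3, a fetal proteoglycan, by 2.96 (SE 0.42, adjusted p = 0.000244). Folr1, a folate receptor, fell by 3.39 (SE 0.30, adjusted p = 1.37e-05). Alppl2, Sall4 and Prame had 0 counts in every library. Between LATS1/2-Sox9-KO and LATS1/2-KO, Gpc3 fell by 1.82 (SE 0.39, adjusted p = 0.0277) and Ceacam1, an adhesion molecule, by 1.39 (SE 0.25, adjusted p = 0.0152), calls that were lost without any of 5 and 3 libraries (adjusted p 0.0531 to 0.101 and 0.0547 to 0.0733). Without LATS1/2-KO replicate 1 Cdh3, a cadherin, was called higher there, at 1.28 (adjusted p = 0.0348). Against control, 4 were called higher and 6 lower in LATS1/2-Sox9-KO (17.8% and 19.6% of all genes). With 1 library left out at a time these were 3 to 5 and 5 to 6. The Gpc3 call against control there was lost without any of 4 libraries.

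Proliferation genes rose against control in both groups with deletions. Of 11, 10 were called higher in each comparison with control (medians 3.67 and 3.86, where 17.1% and 17.8% of all genes were called higher) and 0 between LATS1/2-Sox9-KO and LATS1/2-KO, by edgeR and by DESeq2, with 0 at an unadjusted p under 0.05. The other, Pcna, was under the fold threshold at 0.79 and 0.83. Ccnb1 rose by 5.84 (SE 0.44, adjusted p = 6.29e-06), Cdk1 by 4.67 (SE 0.60, adjusted p = 0.000129), Ccna2 by 4.44 (SE 0.30, adjusted p = 3.71e-06) and Bub1 by 4.42 (SE 0.36, adjusted p = 9.19e-06) in LATS1/2-KO, all in edgeR's fit. Without control replicate 2, Ccnb1 rose by 6.64, Cdk1 by 5.99 and Bub1 by 5.04. The summed level of the list was 8254, 11052 and 6513 in controls, 49174, 50804 and 52546 in LATS1/2-KO, and 46575, 52339 and 56182 in LATS1/2-Sox9-KO. Its part in the levels of the 9 genes was not tested.

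**Figure D5:**
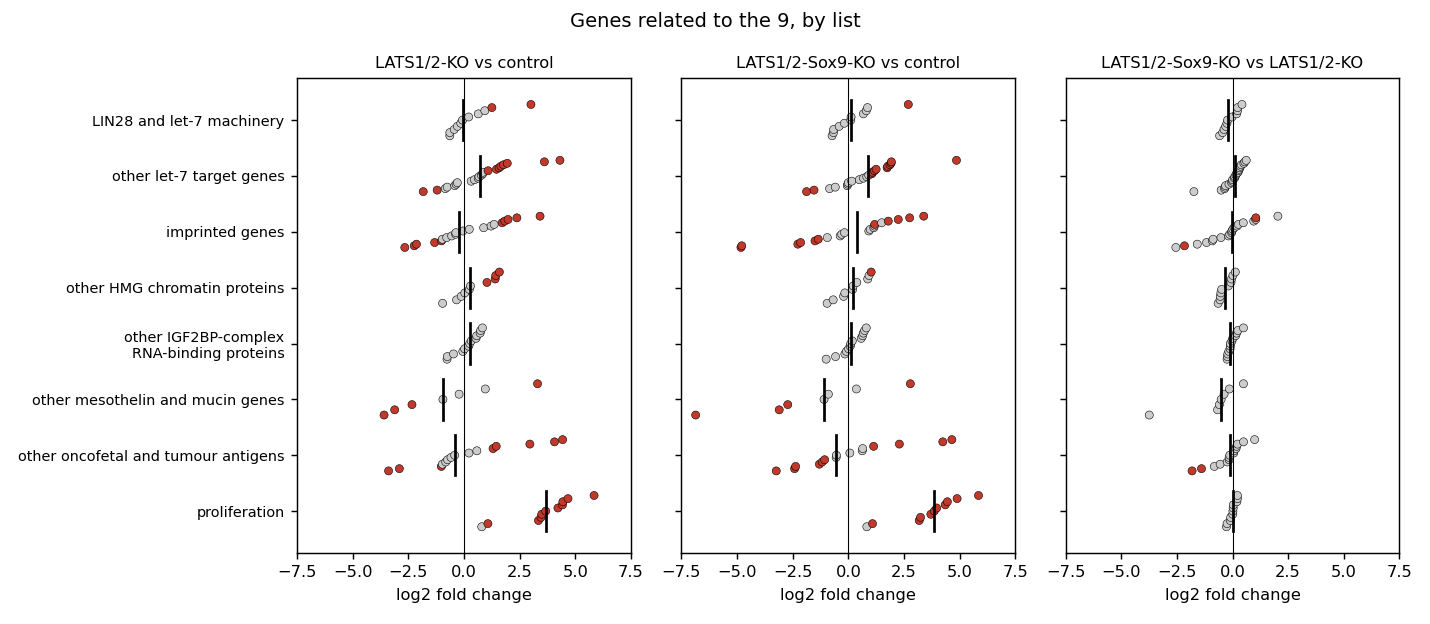
Log2 fold changes of the tested genes of 8 related lists in the 3 comparisons, with called genes in red, other genes in grey and the median of each list as a vertical bar. The proliferation list lies furthest to the right against control (medians 3.67 and 3.86), the IGF2BP-complex list has no called gene, and few genes are called between LATS1/2-Sox9-KO and LATS1/2-KO.

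The genes whose log2 CPM values were most like each of the 9 over the 9 libraries were taken from 12370 candidates. For Msln these were Ube2c (Pearson's r = 0.999) and Birc5 (0.998), both genes of mitosis. For Igf2bp1 they were Aasdhppt (0.991) and Mdfic (0.989), for Igf2bp3 Cops7b (0.991) and Gbp9 (0.990), for Hmga2 Dynlrb1 (0.988) and Iars (0.986), and for Lin28b Dtd1 (0.988) and Slc43a3 (0.985). For H19 they were Purg (0.989) and Ube2f (0.964), for Hmga1 Ctu1 (0.970) and Atad3a (0.946), for Igf2bp2 Arfgef1 (0.954) and Marcks (0.935), and for Muc16 Scyl2 (0.921) and Platr25 (0.910). Among the 9 themselves the highest value was that of Igf2bp3 with Msln (0.958). The 9 points share their groups and normalisation, and the values are given as a description of these libraries.

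Promoter sequences from RefSeq, from 250 bases before to 50 after the start, were used for 6 of the 9 genes (7 promoters, GRCm38.p6). Those of Msln, Igf2bp1 and H19 were not analysed here. None of the 7 held CATTCC, the core bound by TEAD factors, TGANTCA, bound by AP-1, or TATAAA, each searched on both strands. Over all 32851 promoters these letters were found in 14.7%, 7.81% and 13.6%. Their absence says only that the letters are not in these windows.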

How the data were processed

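Paired-end reads from TruSeq RNA v2 libraries were aligned by the authors to mm10 with STAR 2.6.0c and counted per gene with featureCounts (Subread 1.6.2) on Ensembl gene models. The deposited values are raw counts per gene for 9 libraries, with mitochondrial genes left out, and no other deposited unit was used. Of 55450 identifiers, 55104 were matched to symbols in GENCODE M21. The kit does not keep strand, whereas the study's methods mention same-strand counting, so it is not settled whether overlapping genes on opposite strands were separated.

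Counts were fitted in edgeR 4.0.16 (R 4.3.3) over all 9 libraries with 3 group means, after filterByExpr and TMM scaling, which left 19357 genes. The quasi-likelihood test was adjusted by Benjamini-Hochberg over all of them, and a call needed an adjusted p no higher than 0.05 together with a log2 fold change beyond 1 in size, as in the study's methods. Normalised counts were counts scaled to the mean effective library size, and RPKM was computed from them and the annotated exon length. Exact 95% intervals and the limit of 3 counts for a count of 0 cover counting error only. An exact permutation test of 3 against 3 libraries cannot pass, so the fit over all genes was used. The scripts were tested on simulated counts.

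The 9 genes and all lists were chosen with earlier results of these data known. From each list, the named genes were the 4 called genes with the largest change between LATS1/2-KO and control and the 2 with the largest change between LATS1/2-Sox9-KO and LATS1/2-KO, with a mean of at least 100 normalised counts in the higher group. Genes named beyond that rule (Trim71, Zdbf2, Mettl14, Hmgb1, Hmgn1, Alppl2, Sall4, Prame, Ythdc1, Airn, Cdh3, Pcna and the marker genes of cell types) were picked after their values were seen. Lin28a, the paralogue of Lin28b, and Igf2, beside H19, were also named outside that rule. The most similar genes were taken by Pearson's r of log2 CPM with a prior count of 1. Sequences came from GENCODE M21 and RefSeq (GRCm38.p6). DESeq2 1.42.0, other scalings and filters, a test against a fold of 2 and the removal of each library were tried as alternatives.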

Additional observations from a re-analysis of the deposited data

How the results depend on the processing

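Across 17 alternatives, 412 of 437 refitted log2 fold changes of the 9 genes stayed within 1 standard error of the value reported and 25 moved further, and 252 of 306 counts of calls stayed within 1.5 times. The cause of the moves below was not tested, except where fewer genes or libraries entered. With at least 10 counts required in every library, the genes nearly absent from controls were not tested, and 0 of the 9 were called higher in any comparison. With no filter on low counts, 2 of the 9 were called higher (Hmga2 and Msln) and 1 lower (H19) between LATS1/2-Sox9-KO and LATS1/2-KO, and related genes called there numbered 2 higher and 5 lower. H19 was given no adjusted p by DESeq2 between LATS1/2-KO and control.

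Against a fold of 2 (glmTreat), the genes called between LATS1/2-KO and control numbered 1962 higher and 2043 lower, those between LATS1/2-Sox9-KO and control 2240 and 2468, and those between LATS1/2-Sox9-KO and LATS1/2-KO 18 and 14. That test called 0 of the 9 lower between LATS1/2-Sox9-KO and control, 0 of the 9 higher and 0 related genes in either direction between LATS1/2-Sox9-KO and LATS1/2-KO, and 7 related genes lower between LATS1/2-KO and control. DESeq2 called 489 genes higher and 744 lower between LATS1/2-Sox9-KO and LATS1/2-KO. With only the groups compared in the fit, 0 related genes were called higher there, and between LATS1/2-Sox9-KO and control H19 (2.07) and Muc16 (1.14) were added to the 9 genes called higher while Lin28b did not pass the filter.

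Leaving out 1 library at a time, the number of the 9 genes called higher between LATS1/2-KO and control was 6 each time and the number called lower ranged from 0 to 1. Between LATS1/2-Sox9-KO and control, 5 to 7 were called higher, with H19 and Muc16 added without LATS1/2-KO replicate 1, and 0 to 1 lower, the Igf2bp2 call being lost when any 1 of 6 libraries was left out. Between LATS1/2-Sox9-KO and LATS1/2-KO, genes called higher ranged from 121 to 497 and genes called lower from 78 to 582, the 9 genes called higher from 0 to 1 (Msln, lost without LATS1/2-KO replicate 2 or 3 or LATS1/2-Sox9-KO replicate 2 or 3), and related genes called higher from 0 to 5 and lower from 0 to 3. The lowest counts came without LATS1/2-KO replicate 3 (121 higher) and without LATS1/2-Sox9-KO replicate 2 (78 lower), and the 497 without LATS1/2-KO replicate 1. Where 1 library of a group was left out, the other two carried the group.

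Same-numbered libraries of different groups had correlations of deviations between -0.06 and 0.15, and different-numbered ones between -0.147 and 0.0555. The highest values, 0.15 and 0.0986, were those of replicates 2 and 1 between LATS1/2-KO and LATS1/2-Sox9-KO. Whether the replicate numbers pair the libraries is therefore not settled. With the replicate block, 0 of the 9 were called lower between LATS1/2-Sox9-KO and control (Igf2bp2 at -0.99) and 6 higher (H19 added at 2.71), 0 were called higher between LATS1/2-Sox9-KO and LATS1/2-KO, and 1 related gene was called lower there. Genes with 10 or fewer control counts have fitted fold changes that depend on single reads, and their depth does not fix the size of a fold.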
